A study of Mus musculus with 26 samples.

Results

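The genes examined here are the protein-coding neighbours of Crot on mouse chromosome 5, around the long noncoding RNA locus lnc-Crot. They are Crot, Abcb4, Abcb1a, Abcb1b, Dmtf1, Slc25a40, Rundc3b, Dbf4, Adam22 and Sri, chosen by gene symbol. These 10 symbols, with 34 transcripts among them, were found among 22322 symbols and 46585 transcripts, and each gene is represented by its best expressed transcript. In the RefSeq annotation of GRCm38.p6 the order along the chromosome is Sri, Adam22, Dbf4, Slc25a40, Rundc3b, Abcb1a, Abcb1b, Abcb4, Crot and Dmtf1, with 1 other protein-coding gene, Tmem243, between Crot and Dmtf1. A row for lnc-Crot itself was not matched by identifier and is not analysed here.

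RNA-seq values came from livers of 8-week-old mice killed in constant darkness at CT12 or CT0 (circadian time in hours, with CT0 the time at which the lights used to come on). In the Bmal1 experiment, mice labelled as liver-specific Bmal1 knockouts were set against wild-type C57BL/6 controls, with 3 livers each of knockout at CT12, control at CT12, knockout at CT0 and control at CT0. In the Nr1d1 experiment, mice labelled as Nr1d1 knockouts were set against C57BL/6 controls in the same order of groups, with 2 livers each. The 4C libraries came from C57BL/6 livers, 3 at CT18 and 3 at CT6. No tissue limit is given for the Nr1d1 knockout. Details of the Cre line, both alleles, the background of the knockouts and the sex of the mice were not given in the sources used here. Comparisons ask how each clock gene's loss and the time of day bear on liver RNA, and which parts of chromosome 5 lie near lnc-Crot.

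BMAL1 (gene symbol Arntl) is an activator of the circadian clock, and REV-ERBα, the product of Nr1d1, is a repressor that acts on Arntl among other genes. Crot encodes carnitine O-octanoyltransferase, a peroxisomal enzyme that passes medium-chain acyl groups, left by the shortening of fatty acids, to carnitine for export to mitochondria. The neighbouring ABC transporter genes serve the hepatocyte's surface: Abcb4 encodes the transporter that moves phosphatidylcholine into bile, while Abcb1a and Abcb1b encode P-glycoproteins, which pump drugs and other xenobiotics out of cells. The remaining genes have no shared pathway with these, and include a transcription factor gene (Dmtf1), a mitochondrial carrier gene (Slc25a40) and the gene of a kinase subunit needed for DNA replication (Dbf4).

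Upstream sequences of 3 sites are shown because Crot and Abcb1a carry most of the differences described below, and because Dbf4 and Slc25a40 point away from each other across 1 short stretch. They are RefSeq sequences of build GRCm38.p6, matched by gene symbol and written 5′ to 3′. Whether these starts are those of the Ensembl transcripts measured here was not checked. Capitals mark the GC box GGGCGG on either strand. The Crot sequence is the 250 bases before the start (chr5:8997147-8997396, minus strand), the Abcb1a sequence the 250 bases before its start (chr5:8566841-8567090, plus strand), and the last is the 121 bases between the starts of Dbf4 and Slc25a40 (chr5:8422717-8422837, plus strand).
Crot: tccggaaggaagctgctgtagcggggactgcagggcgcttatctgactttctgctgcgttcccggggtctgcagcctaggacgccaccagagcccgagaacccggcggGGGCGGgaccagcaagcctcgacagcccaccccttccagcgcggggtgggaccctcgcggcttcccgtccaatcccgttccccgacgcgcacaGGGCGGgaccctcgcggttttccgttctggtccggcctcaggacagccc
Abcb1a: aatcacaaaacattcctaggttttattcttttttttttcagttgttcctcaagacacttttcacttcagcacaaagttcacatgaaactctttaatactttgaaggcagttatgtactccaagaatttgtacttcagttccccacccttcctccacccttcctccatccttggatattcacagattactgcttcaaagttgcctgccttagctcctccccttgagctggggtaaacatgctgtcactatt
Between Dbf4 and Slc25a40: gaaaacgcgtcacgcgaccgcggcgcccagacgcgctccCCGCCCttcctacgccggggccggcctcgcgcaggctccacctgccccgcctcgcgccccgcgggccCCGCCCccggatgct

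All 10 genes matched 1 RefSeq promoter each by symbol, which was not tied to the measured transcript. On both strands, 6 motifs were searched in the 250 bases before each start, and no motif contains another. The E-box CACGTG, the site that BMAL1 binds with its partner CLOCK, was in 0 of the 10, against 6.02% of 32851 promoters, and its variant CACGTT in 0 of 10, against 3.85%. AGGTCA, the core of the element bound by REV-ERBα and ROR receptors, was in Adam22 alone, against 14% of all promoters. The GC box was in 7 of 10 (Crot, Abcb4, Abcb1b, Dmtf1, Slc25a40, Rundc3b and Dbf4), against 32.7%, those of Dbf4 and Slc25a40 not being separate, since their windows overlap in the stretch shown above. CCAAT was in 4 of 10 (Crot, Abcb4, Abcb1b and Rundc3b), against 33.8%, and TATAAA in 0 of 10, against 12.4%. The Crot sequence holds 25 CG dinucleotides, a count reached by 10.7% of promoters, and the Abcb1a sequence holds none, as do 7.87% of promoters. The 32851 promoters, with a median of 6 CG, were not filtered for protein-coding genes, so they are not a matched background for these 10. These matches describe the letters in 1 window and nothing more.

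The deposited values are RPKM, reads scaled to transcript length and library depth, so levels can be compared between genes. Crot was the most abundant of the neighbourhood, at 103.7 to 462 RPKM over the 12 Bmal1 libraries, followed by Abcb4 at 54.72 to 106.9 RPKM. Sri, which encodes the calcium-binding protein sorcin, lay at 8.35 to 11.71 RPKM and Dmtf1 at 3.97 to 6.16 RPKM. Slc25a40 (1.39 to 2.28), Dbf4 (0.74 to 2.38) and Abcb1a (0.35 to 2.54 RPKM) overlapped one another in level. Abcb1b lay at 0.062 to 0.878 RPKM, and Adam22 (0 to 0.252) and Rundc3b (0 to 0.183 RPKM) were close to the detection floor, each listed at 0 in 1 library. Close neighbours on the chromosome thus lay at very different levels.

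Read support followed the same order. Recovered whole reads, known for each transcript up to 1 unknown factor that all libraries share, were 4562 to 19223 per Bmal1 library for Crot, 2602 to 5953 for Abcb4 and 24 to 185 for Abcb1a, but at most 5 for Rundc3b and 8 for Adam22. Rundc3b, a RUN domain gene, and Adam22, which encodes a neuronal surface protein without protease activity, are therefore given as values only. Rundc3b overlaps Abcb1a on the opposite strand in RefSeq, and Abcb1a and Abcb1b are close paralogs; whether counting used strand was not given in the sources used here, so reads of these 3 genes may be shared. In the test below, genes had to reach a mean of 0.5 RPKM over an experiment, which 7 of the 10 did in the Bmal1 experiment (all but Abcb1b, Rundc3b and Adam22) and 8 in the Nr1d1 experiment (all but Rundc3b and Adam22).

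The targeted genes were read first, over whole transcripts, in which a partial deletion cannot be seen. Arntl lay at 3.59 to 4.37 RPKM in livers labelled Bmal1 knockout and 0.68 to 1.26 in control livers at CT12, and at 5.73 to 7.45 in knockout and 15.7 to 16.35 in control livers at CT0, so it was lower under that label at CT0 but higher at CT12. Nr1d1 was at 11.07 and 28.4 RPKM in livers labelled Nr1d1 knockout and 3.45 and 33.42 in control livers at CT12. At CT0 it was at 6.10 and 32.9 in knockout and 0.374 and 21.97 in control livers. These levels do not go with the label, and directions are given for the labels as they stand. Arntl in the Nr1d1 experiment was at 8.00 and 19.29 RPKM in knockout and 0.597 and 1.298 in control livers at CT12. At CT0 Arntl was at 8.03 and 19.91 in knockout and 8.92 and 39.71 in control livers. In the Bmal1 experiment Nr1d1 was at 0.271 to 0.801 RPKM in knockout and 2.04 to 6.57 in control livers at CT0. At CT12 those groups overlapped (0.968 to 1.61 and 1.56 to 2.95). All 6 hepatocyte markers were abundant in every library, with Alb at 14010 RPKM or more. Reads recovered over resolved genes came to 4.72 M to 7.81 M (units of 1e6) per Bmal1 library and 11.03 M to 40.05 M per Nr1d1 library. In bulk liver RNA, fewer cells of a type and less RNA per cell cannot be told apart.

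At CT12 in the Bmal1 experiment, Crot rose and Abcb1a fell in livers labelled Bmal1 knockout. Crot stood at 222, 343 and 462 RPKM in the 3 knockout livers, against 117, 104 and 162 RPKM in the 3 control livers. Every knockout liver was above every control liver, with means of 342.4 ± 119.9 and 127.9 ± 30.74 RPKM (SD, n = 3 each). On the log2(RPKM + 0.5) scale Crot was higher by 1.38 ± 0.30 (SE; adjusted p = 0.013 by limma, with Benjamini-Hochberg adjustment over 11439 genes). Without knockout CT12 replicate 3 the Crot difference was 1.13 (adjusted p = 0.0532), and without control CT12 replicate 2 it was 1.24 (adjusted p = 0.0508).

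Abcb1a went the other way at CT12. It stood at 0.555, 0.408 and 0.351 RPKM in knockout livers, against 2.29, 1.53 and 2.54 RPKM in control livers, and the groups did not overlap. The log2 difference was -1.47 ± 0.18 (adjusted p = 0.000285 by limma). The added 0.5 RPKM understates a gene this low, and edgeR on recovered reads (24 to 40 reads in knockout libraries, 112 to 185 in control libraries) gave -2.36 (adjusted p = 3.85e-05). The call stood in all 21 alternative fits, between -2.36 and -1.10.

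The other neighbours were not called at CT12. Abcb4 stood at 73.8, 99.8 and 106.9 RPKM in knockout livers and 66.9, 71.7 and 72.6 RPKM in control livers. Its knockout livers all lay above its control livers, with a log2 difference of 0.39 ± 0.13 (adjusted p = 0.085 by limma; 0.55 with adjusted p = 0.01 without knockout CT12 replicate 1). Dbf4, the activator of the replication kinase CDC7, stood at 1.70, 2.38 and 2.27 RPKM in knockout livers and 1.09, 1.29 and 1.45 RPKM in control livers. These groups did not overlap either, with a log2 difference of 0.55 ± 0.23 (95% confidence interval 0.05 to 1.05; adjusted p = 0.162 by limma). Dmtf1 (0.06 ± 0.11), Slc25a40 (0.12 ± 0.15) and Sri (-0.16 ± 0.12) had intervals that included 0. Abcb1b, untested for its low level, was at 0.080, 0.435 and 0.118 RPKM in knockout livers and 0.585, 0.878 and 0.378 RPKM in control livers, with 1 knockout liver inside the control range. In all, limma called 2 of 7 neighbours at CT12, beside 9.68% of all genes tested, and their median log2 difference was 0.12 beside 0.09 over all genes.

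Markers of cell types were summed in the same libraries. The sums are of RPKM, so the most abundant marker of a list weighs most. Over the Bmal1 libraries the median was 23930 RPKM for Alb, 4447 for Apoa1 and 123.1 for Hnf4a. At CT12 the hepatocyte markers (6 of 6 found) summed to 25720 to 29090 RPKM in knockout livers and 36470 to 46270 RPKM in control livers, and the cholangiocyte markers (5 of 5) to 88.37 to 123.7 RPKM in knockout and 27.17 to 49.97 RPKM in control livers. Neutrophil markers (6 of 6) summed to 17.37 to 45.52 RPKM in knockout and 5.94 to 8.47 RPKM in control livers. Stellate cell or fibroblast markers (6 of 6) summed to 100.2 to 133.1 RPKM in knockout and 82.11 to 96.51 RPKM in control livers, and erythroid markers (5 of 5) to 167.9 to 214 RPKM in knockout and 82.51 to 145 RPKM in control livers. Groups thus did not overlap at CT12 for 5 of 8 lists, the exceptions being those of endothelial cells, Kupffer cells or macrophages, and lymphocytes. The share of all genes whose groups did not overlap was not counted. At CT0 the groups did not overlap for 2 of 8 lists. Hepatocyte markers there summed to 29000 to 34310 RPKM in knockout and 44250 to 49420 RPKM in control livers, and cholangiocyte markers to 93.06 to 152 RPKM in knockout and 48.62 to 64.78 RPKM in control livers. No marker was at 0 in every library of a Bmal1 group, and values of 0 in single libraries were not listed. The part of cell composition in the differences of Crot and Abcb1a was not tested.

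**Figure D1:**
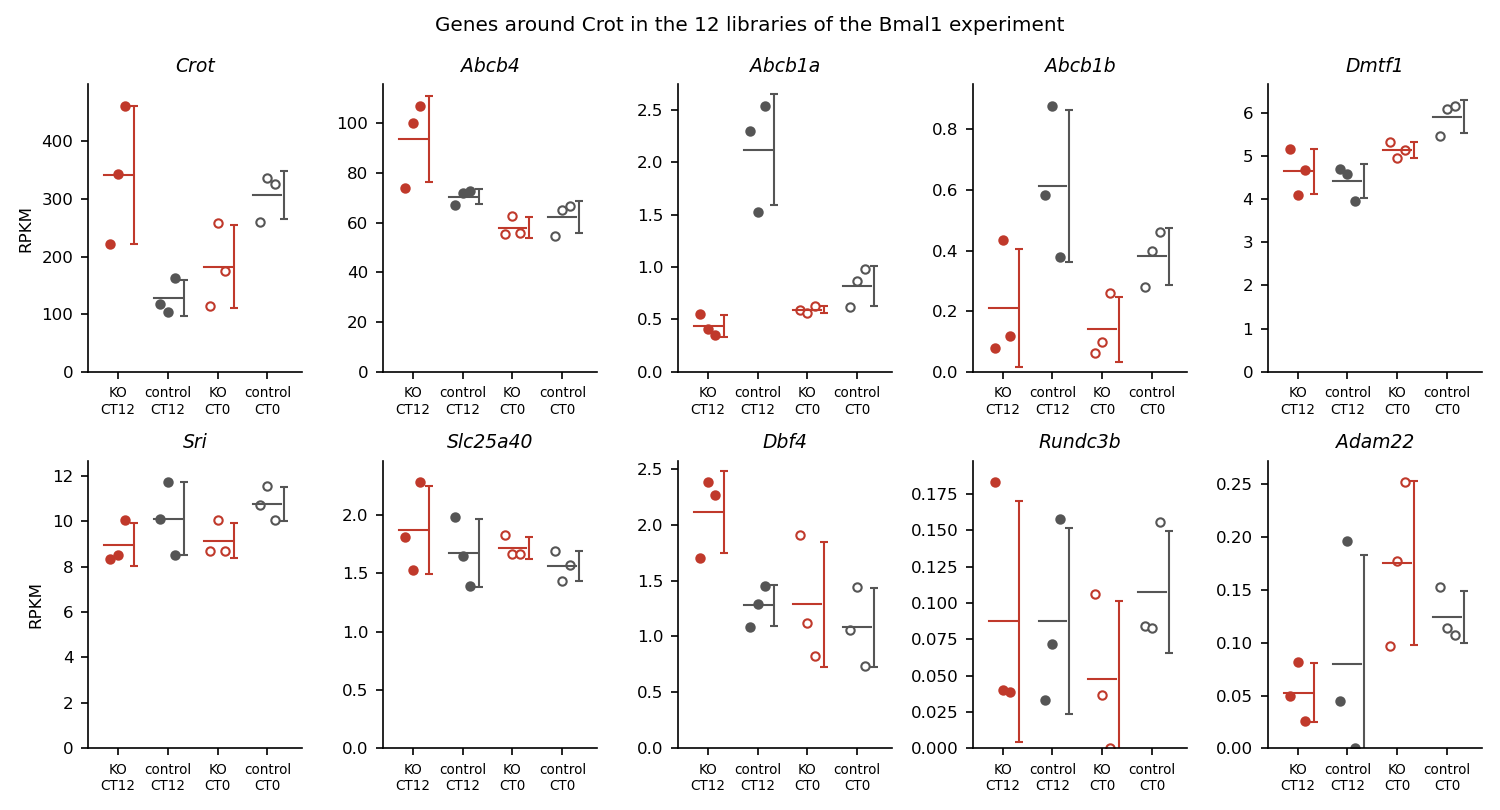
RPKM (vertical axis, linear from 0, a separate scale per gene) of the 10 genes in the 12 Bmal1 libraries, with livers labelled knockout (KO) in red and control livers in grey, CT12 filled and CT0 open; horizontal bars are group means and whiskers 1 SD (n = 3), ending at the axis where the SD reaches below 0. At CT12 the 3 knockout livers lie above the controls for Crot (222 to 462 against 104 to 162 RPKM) and below them for Abcb1a (0.351 to 0.555 against 1.53 to 2.54 RPKM).

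At CT0 no neighbour was called in the Bmal1 experiment. Crot stood at 114, 258 and 175 RPKM in knockout livers and 260, 337 and 325 RPKM in control livers. All knockout livers lay below all control livers, the reverse of the order at CT12, but the closest pair were 258 and 260 RPKM. The log2 difference of Crot was -0.82 ± 0.30 (adjusted p = 0.24 by limma). Abcb1a stood at 0.591, 0.562 and 0.628 RPKM in knockout livers and 0.614, 0.863 and 0.983 RPKM in control livers, with overlapping groups and a log2 difference of -0.26 ± 0.18 (adjusted p = 0.587). Abcb4 was at 55.38 to 62.68 RPKM in knockout livers and 54.72 to 66.6 RPKM in control livers.

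Of the remaining genes at CT0, Dmtf1 was at 4.96 to 5.31 RPKM in knockout livers and 5.46 to 6.16 RPKM in control livers, groups that did not overlap (log2 difference -0.18 ± 0.11). Sri was at 8.68 to 10.05 RPKM in knockout livers and 10.04 to 11.54 RPKM in control livers, which overlapped by 1 liver (-0.23 ± 0.12). Slc25a40 (0.11 ± 0.15) and Dbf4 (0.16 ± 0.23) had differences within their errors. Abcb1b stood at 0.062, 0.097 and 0.261 RPKM in knockout livers and 0.280, 0.399 and 0.463 RPKM in control livers, all of the control livers above. Limma called 0 of 7 neighbours at CT0, beside 1.62% of all genes, and edgeR on recovered reads called 0. At an unadjusted p under 0.05 there was 1 of 7, Crot, beside 1559 of all 11439 genes. The median of the 7 was -0.18, beside 0.01 over all genes.

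Whether the knockout difference itself changed with time was tested as an interaction. For Crot the difference at CT12 exceeded that at CT0 by 2.20 ± 0.43 on the log2 scale (adjusted p = 0.0279 by limma). For Abcb1a the interaction was -1.20 ± 0.25, the difference being the more negative at CT12 (adjusted p = 0.0417; -1.88 with adjusted p = 0.0178 by edgeR on recovered reads). Limma thus called 2 of 7 neighbours, beside 1.31% of all genes, and edgeR called the same number. Abcb4 had an interaction of 0.49 ± 0.18 (adjusted p = 0.299), and those of Dmtf1, Slc25a40, Dbf4 and Sri were between 0.02 and 0.40 with intervals that included 0.

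Both interaction calls depended on single libraries. The call of Crot was lost with no filter on RPKM (adjusted p = 0.0623) and in 7 of 12 fits that left out 1 library. These were the fits without knockout CT0 replicate 3 (adjusted p = 0.0649), control CT0 replicate 2 (0.0822) or 3 (0.0702), knockout CT12 replicate 2 (0.0714) or 3 (0.0636), and control CT12 replicate 1 (0.0718) or 2 (0.0654), with values of 1.95 to 2.21. The call of Abcb1a stood in 1 of 12 such fits, the one without control CT12 replicate 2, and the other adjusted p lay between 0.053 and 0.107. Settings that ended it included a pseudocount of 0.1 (-1.64, adjusted p = 0.0537), no filter on RPKM (0.0578) and the sum over transcripts (0.0568).

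Over time in control livers of the Bmal1 experiment, Crot fell and Abcb1a rose between CT0 and CT12. The values given above put Crot at 127.9 ± 30.74 RPKM at CT12 and 307.7 ± 41.48 RPKM at CT0, with no overlap and a log2 difference of -1.28 ± 0.30 (adjusted p = 0.0203 by limma). Abcb1a was at 2.12 ± 0.53 RPKM at CT12 and 0.820 ± 0.188 RPKM at CT0, also without overlap, a log2 difference of 0.98 ± 0.18 (adjusted p = 0.00546) that stood in all 21 alternative fits. Dmtf1, which encodes a Myb-like transcription factor that binds cyclin D, was lower at CT12, with 4.70, 4.58 and 3.97 RPKM at CT12 and 5.46, 6.09 and 6.16 RPKM at CT0 (-0.38 ± 0.11, adjusted p = 0.0432).

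The call of Crot over time was lost without control CT0 replicate 2 (-1.21, adjusted p = 0.0712) or 3 (-1.24, 0.0655) and without control CT12 replicate 1 (-1.23, 0.0651) or 2 (-1.14, 0.0629). The call of Dmtf1 stood in 6 of 21 alternative fits. Fits that lost it included those with no filter on RPKM (adjusted p = 0.0604), TMM factors (-0.31, 0.0859), quantile normalization (0.0981), edgeR on recovered reads (0.0673) and the compared groups alone (0.0715). It was also lost without knockout CT0 replicate 2 (0.0563) or 3 (0.057), control CT0 replicate 1 (0.0575), 2 (0.128) or 3 (0.126), knockout CT12 replicate 3 (0.0521) or control CT12 replicate 1 (0.0666), 2 (0.0707) or 3 (0.154). Abcb4 (0.18 ± 0.13), Slc25a40 (0.07 ± 0.15), Dbf4 (0.19 ± 0.23) and Sri (-0.10 ± 0.12) had intervals that included 0. Limma called 3 of 7 neighbours in control livers, beside 10.8% of all genes tested, with a median of 0.07 beside -0.08 over all genes.

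In livers labelled Bmal1 knockout, neither Crot nor Abcb1a was called over time, and Abcb4 rose. Abcb4 was at 93.54 ± 17.42 RPKM at CT12 and 57.93 ± 4.12 RPKM at CT0 (SD, n = 3 each), with no overlap and a log2 difference of 0.67 ± 0.13 (adjusted p = 0.0264 by limma). Crot was at 342.4 ± 119.9 RPKM at CT12 and 182.5 ± 72.41 RPKM at CT0, groups that overlapped (0.92 ± 0.30, adjusted p = 0.129). Abcb1a was at 0.438 ± 0.105 RPKM at CT12 and 0.594 ± 0.033 RPKM at CT0 (-0.23 ± 0.18, adjusted p = 0.525). Dbf4 was at 2.12 ± 0.365 RPKM at CT12 and 1.29 ± 0.560 RPKM at CT0 (0.58 ± 0.23, adjusted p = 0.195).

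The Abcb4 call was lost when the 2 compared groups were fitted alone (adjusted p = 0.113), and without knockout CT0 replicate 1 (0.0651) or 3 (0.0905) or knockout CT12 replicate 2 (0.0888) or 3 (0.0642), with values between 0.57 and 0.67. Dmtf1 (-0.14 ± 0.11), Slc25a40 (0.08 ± 0.15) and Sri (-0.03 ± 0.12) had intervals that included 0. Limma called 1 of 7 neighbours in knockout livers, beside 1.90% of all genes.

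**Figure D2:**
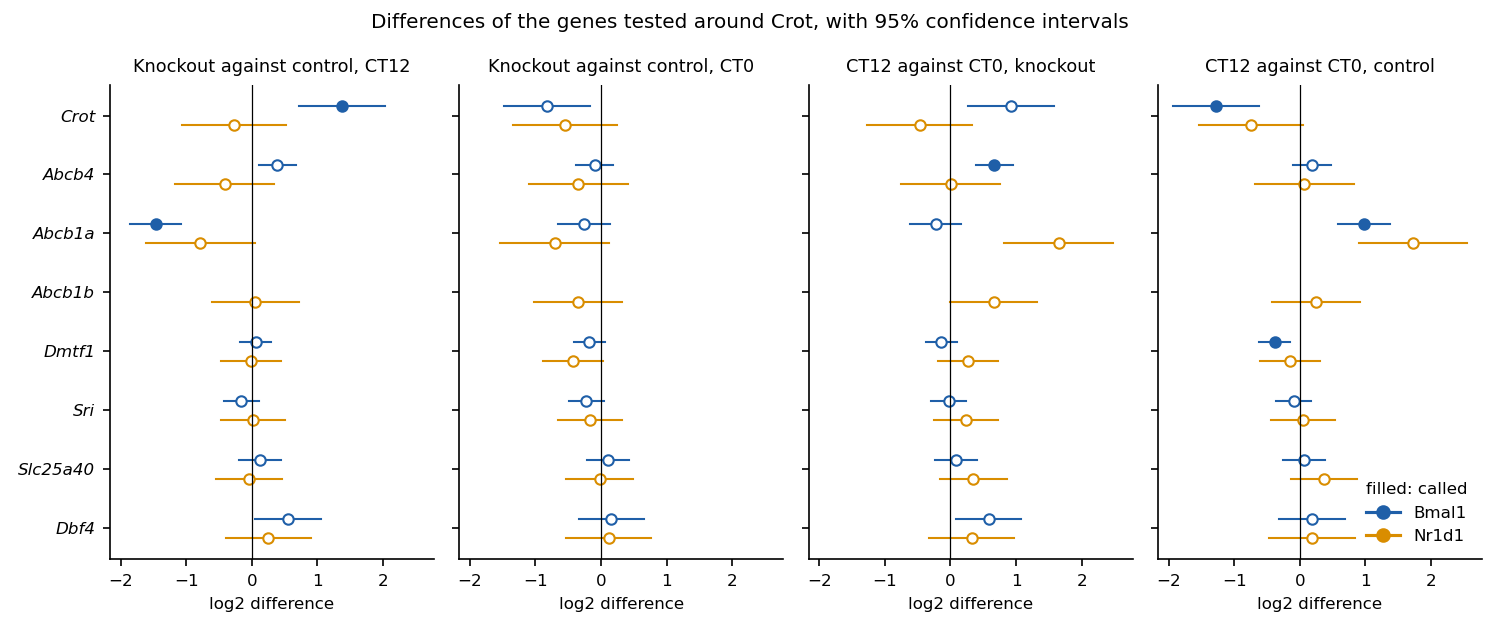
Log2 differences (horizontal axis; lines are 95% confidence intervals from limma) of the genes that could be tested, in the Bmal1 (blue) and Nr1d1 (orange) experiments; filled points were called at an adjusted p under 0.05. Crot and Abcb1a lie on opposite sides of 0 in the Bmal1 experiment at CT12 (1.38 and -1.47) and over time in control livers (-1.28 and 0.98), and no orange point is filled.

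In the Nr1d1 experiment levels depended on the replicate number, and only replicate 2 is labelled as paired-end. Its RPKM summed over gene transcripts was 2099302 to 2211054, against 588418 to 875424 in replicate 1, so values are read within a replicate and the fit carried replicate number as a block. At CT12, Crot was at 100.0 RPKM in the knockout and 115.2 RPKM in the control liver of replicate 1, and at 165.7 and 211.1 RPKM in replicate 2. At CT0 Crot was at 95.1 RPKM in the knockout and 126.0 RPKM in the control liver of replicate 1, and at 335 and 543.2 RPKM in replicate 2. Crot was thus lower in the knockout of all 4 pairs, with log2 differences of -0.28 ± 0.34 at CT12 (95% confidence interval -1.07 to 0.52; adjusted p = 1 by limma) and -0.55 ± 0.34 at CT0 (-1.35 to 0.24; adjusted p = 0.873).

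Abcb1a at CT12 was at 1.86 RPKM in the knockout and 3.21 RPKM in the control liver of replicate 1, and at 8.90 and 17.23 RPKM in replicate 2. At CT0 it was at 0.543 RPKM in the knockout and 0.467 RPKM in the control liver of replicate 1, and at 1.66 and 5.72 RPKM in replicate 2. The knockout liver was thus lower in 3 of 4 pairs, with log2 differences of -0.78 ± 0.36 at CT12 (adjusted p = 1 by limma) and -0.71 ± 0.36 at CT0 (adjusted p = 0.873). Whether the knockout differences of Crot or Abcb1a differed between the Bmal1 and Nr1d1 experiments was not tested.

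Abcb1a was higher at CT12 than at CT0 in both replicates and under both labels of the Nr1d1 experiment. Within a replicate the log2 difference was 1.18 and 2.12 in knockout livers and 1.94 and 1.51 in control livers. The fitted differences were 1.65 ± 0.36 in knockout livers (adjusted p = 0.284 by limma) and 1.73 ± 0.36 in control livers (adjusted p = 0.153), with unadjusted p of 0.00182 and 0.00139. Fitted on the compared groups alone, both were called by limma (adjusted p = 0.00491 in knockout livers and 0.016 in control livers). With 2 livers a group and a replicate block, each gene's own spread is barely measured there, so these calls lean on the spread shared across genes. For setting, the median over all genes of the same contrasts was 0.16 and 0.08; other scalings moved the first by -0.14 (TMM) and -0.18 (quantile normalization). The genotype by time interaction of Abcb1a was -0.07 ± 0.51 (95% confidence interval -1.25 to 1.10; adjusted p = 0.996).

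Crot over time in the Nr1d1 experiment differed between replicates. In control livers the log2 difference of CT12 from CT0 was -0.13 in replicate 1 and -1.36 in replicate 2, and in knockout livers 0.07 and -1.01. The fitted values were -0.75 ± 0.34 in control livers (adjusted p = 0.646) and -0.47 ± 0.34 in knockout livers (adjusted p = 0.57 by limma). Abcb4 ran in opposite directions in the replicates, with 0.66 and -0.52 in control livers and 0.28 and -0.27 in knockout livers. These 2 genes are those whose reads could not be resolved in this experiment.

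The remaining neighbours of the Nr1d1 experiment were at low to moderate levels. Abcb1b, tested here, was at 0.376 RPKM in the knockout and 0.558 RPKM in the control liver of replicate 1 at CT12 and at 1.77 and 1.24 RPKM in replicate 2, while at CT0 it was at 0.194 and 0.489 RPKM in replicate 1 and 0.654 and 0.815 RPKM in replicate 2. Its fitted differences were 0.06 ± 0.29 at CT12 and -0.35 ± 0.29 at CT0. Dmtf1 differed by -0.01 on the log2 scale in both replicates at CT12, and by -0.48 and -0.37 at CT0 (fitted -0.43 ± 0.20; adjusted p = 0.873 by limma). Slc25a40 (-0.04 ± 0.22 at CT12 and -0.02 ± 0.22 at CT0), Dbf4 (0.25 ± 0.28 and 0.11 ± 0.28) and Sri (0.02 ± 0.21 and -0.17 ± 0.21) had intervals that included 0. Rundc3b was at 0 to 0.736 RPKM and Adam22 at 0.0094 to 0.522 RPKM over the 8 libraries.

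Limma called none of the 8 neighbours tested in the Nr1d1 experiment in any contrast, and edgeR called none of the 6 whose reads could be resolved. The background was as low, with 0.0393% of 12738 genes called between knockout and control at CT12, 0.00% at CT0, 0.0550% over time in knockout livers, 0.353% over time in control livers and 0.00% in the interaction. Where limma called no gene, 575 genes at CT0 and 538 in the interaction had an unadjusted p under 0.05, and edgeR called 3 and 2 of 11325. Abcb1a was the 1 of 8 neighbours with an unadjusted p under 0.05 over time, under both labels. Of all 12738 genes, 1833 had one over time in knockout livers and 1031 in control livers. None of the 8 had one between knockout and control (579 of all genes at CT12) or in the interaction.

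**Figure D3:**
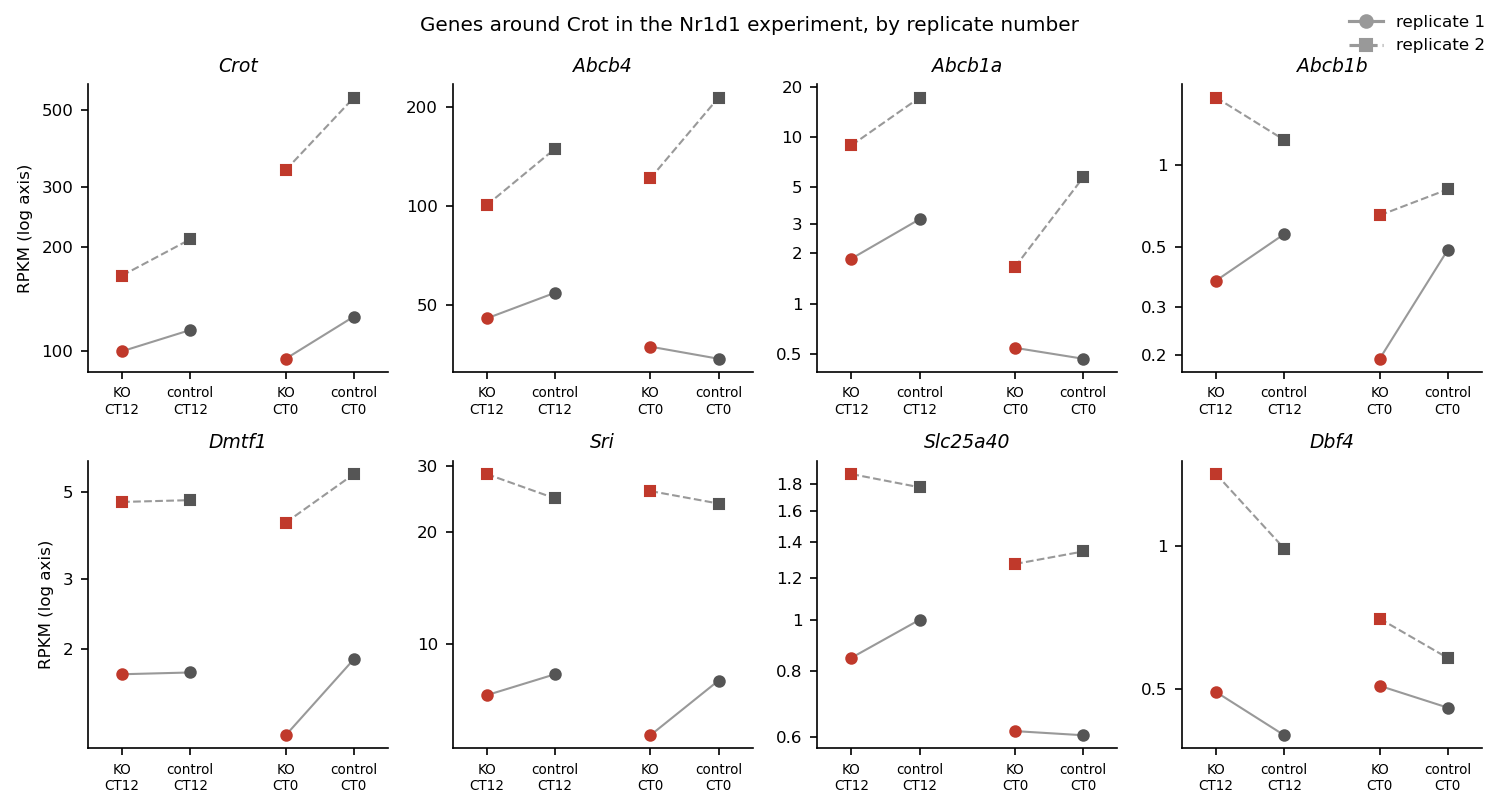
RPKM (log axis, a separate scale per gene) of the 8 genes tested in the Nr1d1 experiment, with livers labelled knockout (KO) in red and control livers in grey; lines join the knockout and the control liver of the same time and replicate number (circles and solid lines replicate 1, squares and dashed lines replicate 2). Crot is lower in the knockout of each of the 4 pairs (100.0 against 115.2 RPKM in replicate 1 at CT12), and Abcb1a lies higher at CT12 than at CT0 in both replicates.

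The 10 genes did not vary as 1 block. Across the 12 Bmal1 libraries, the 45 pairs of neighbours had Pearson correlations of log2(RPKM + 0.5) between -0.60, for Crot with Abcb1a, and 0.68, for Abcb4 with Dbf4, with a median of -0.07. Of these pairs, 17 include Rundc3b or Adam22, whose few reads carry little information, and the other 28 had the same range and a median of -0.01. Crot and its direct neighbour Abcb4 had a correlation of 0.49, and the paralogs Abcb1a and Abcb1b, which may share reads, 0.64. Dbf4 and Slc25a40, whose starts lie 121 bases apart, had a correlation of 0.26. These libraries share genotype and time groups, so the correlations describe group patterns as well as single livers. After centring within replicate, the 8 Nr1d1 libraries gave a median of 0.38 (0.36 without Rundc3b and Adam22), with -0.40 for Crot with Abcb1a and 0.67 for Abcb1a with Abcb1b. Abcb4 with Dbf4, the highest pair in the Bmal1 libraries, had -0.70 there.

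The genes elsewhere whose pattern over the 12 Bmal1 libraries was most like that of Crot, among 11438 tested, were Mfsd7c (r = 0.92), Dazap2 (0.90), Ldha, the lactate dehydrogenase A gene (0.895), Rab11fip4 (0.892) and Haus5 (0.891). In the 8 Nr1d1 libraries, centred within replicate, Rab11fip4 (0.94) and Dazap2 (0.80) had a similar pattern to Crot, but Ldha had 0.50, Mfsd7c 0.07 and Haus5 -0.29. Abcb1a was most like Cyp2a5, a cytochrome P450 gene, with 0.96 in the Bmal1 and 0.76 in the Nr1d1 libraries. For the other genes the closest were Gba2 for Abcb4 (0.953 in Bmal1 and 0.11 in Nr1d1 libraries), Zbtb5 for Dmtf1 (0.953 and 0.63), Parl for Slc25a40 (0.891 and 0.607), Cox16 for Dbf4 (0.922 and 0.523) and Gm15446 for Sri (0.905 and 0.329).

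Genes of the pathway in which Crot works were counted beside it. Of 27 tested genes of carnitine transfer and peroxisomal beta-oxidation, the pathway whose products CROT takes up, 2 rose and 6 fell in livers labelled Bmal1 knockout at CT12, beside 9.68% of all genes called. Their median was -0.38 beside 0.09 over all genes, while Crot rose by 1.38. The marker sums given above, lower in knockout livers at both times for the hepatocyte list, in which Alb weighs most, stand beside these counts too. Their part was not tested. Falls at CT12 included those of the thiolase genes Acaa1a (-1.0 ± 0.15, adjusted p = 0.00116 by limma) and Acaa1b (-1.41 ± 0.25), which may share reads, and of the thioesterase gene Acot4 (-1.61 ± 0.32). Cpt1a, the mitochondrial carnitine palmitoyltransferase, fell as well (-0.52 ± 0.15, adjusted p = 0.0491). Pecr, a peroxisomal enoyl-CoA reductase, rose (0.32 ± 0.08, adjusted p = 0.0313).

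At CT0, 1 gene of the same list rose and 4 fell by limma, beside 1.62% of all genes called, with a median of -0.32 beside 0.01 over all genes. Pecr rose (0.46 ± 0.08), and falls included those of Acaa1a (-0.78 ± 0.15), Acaa1b (-1.24 ± 0.25) and Cpt1a (-0.70 ± 0.15). Crot at CT0 had -0.82 ± 0.30 and was not called. In the Nr1d1 experiment limma called 0 of 28 genes of the list between knockout and control at either time. The share of all genes called was 0.0393% at CT12 and 0.00% at CT0. At an unadjusted p under 0.05 there were 4 of 28 at CT12, beside 579 of all 12738 genes, and 0 at CT0, beside 575. At both times edgeR called 0 of the list.

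Among 15 tested hepatocyte ABC transporter genes and their partners, Abcb11, the bile salt export pump, rose in Bmal1 knockout livers at CT12 (1.10 ± 0.11, adjusted p = 8.15e-05 by limma). Abcb6 (-0.41 ± 0.10) and Abcc2 (-0.36 ± 0.09) fell, so limma called 3 of 15, beside 9.68% of all genes, and the median was -0.05 beside 0.09 over all genes. Abcb11 was thus called in the same direction as Crot at CT12, where Abcb4 was not called. At CT0 limma called 0 of the 15, beside 1.62% of all genes, and edgeR called 0. At an unadjusted p under 0.05 there were 4 of the 15, beside 1559 of all 11439 genes. From a wider list of chromosome 5 genes, which also names Tmem243, 9 genes were tested. Limma called 1 of these at CT12, beside 9.68% of all genes, the metalloreductase gene Steap2, which fell (-1.05 ± 0.21, adjusted p = 0.0084). At CT0 limma called 0 of the 9, beside 1.62% of all genes, and edgeR called 1. At an unadjusted p under 0.05 there were 2 of the 9, beside the same 1559 of 11439 genes.

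The 4C counts describe contacts of the lnc-Crot bait along chromosome 5. The position of the bait and of the genes in build mm9, which the fragments use, was not given in the sources used here, so counts are given by distance from the fragment with the most counts over the 6 libraries (chr5:9042517-9044511, 11.92% of all counts) and not by gene. Its neighbour at chr5:9044517-9046289 held 9.35% of all counts. Libraries held 1585870 to 2671527 counts at CT18 and 864391 to 1852389 at CT6. The fragment with the most counts held 9.45%, 11.47% and 11.78% of the CT18 libraries and 14.46%, 12.86% and 16.29% of the CT6 libraries. These groups did not overlap, and the part of this difference in the shares below was not tested. Between 23.74% and 27.75% of a library lay within 10 kb of that fragment and were left out.

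Of the counts outside 10 kb, 39.94%, 34.28% and 39.39% lay at 10 kb to 100 kb in the CT18 libraries, against 36.63%, 33.46% and 22.04% in the CT6 libraries. The groups overlapped, and the difference in means was 7.16 percentage points (two-sided exact permutation test, p = 0.2; the smallest p this design allows is 0.1). At 100 kb to 500 kb the share was 16.18% ± 0.90 at CT18 and 12.98% ± 3.55 at CT6 (SD, n = 3 each; exact permutation p = 0.2). At 500 kb to 1 Mb it was 3.22% ± 1.36 at CT18 and 5.22% ± 1.17 at CT6 (exact permutation p = 0.1). Beyond 1 Mb it was 42.73% ± 2.45 at CT18 and 51.09% ± 5.13 at CT6, with every CT18 library below every CT6 library (exact permutation p = 0.1).

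Without CT6 replicate 3 the difference at 10 kb to 100 kb was 2.83 points, and without CT6 replicate 1 that at 100 kb to 500 kb was 1.16 points. Without CT18 replicate 3 or CT6 replicate 3 that at 500 kb to 1 Mb was -1.27 or -1.32 points, and without CT6 replicate 3 that beyond 1 Mb was -5.56 points. Between 10 kb and 1 Mb, 52.93% to 56.35% of the counts lay on the side of lower coordinates at CT18 and 57.73% to 61.75% at CT6, groups that did not overlap (difference -4.13 points, exact permutation p = 0.1). In 20 bins of 100 kb within 1 Mb, the smallest exact permutation p was 0.1 and every adjusted p was 0.5 or more. Counted as fragments with a read in place of reads, the differences were -0.44, 0.63, 0.26 and -0.46 points by increasing distance, with the first and the third turned in direction. The RNA libraries are from CT12 and CT0, so the contacts and the levels of the neighbouring genes come from different times of day.

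**Figure D4:**
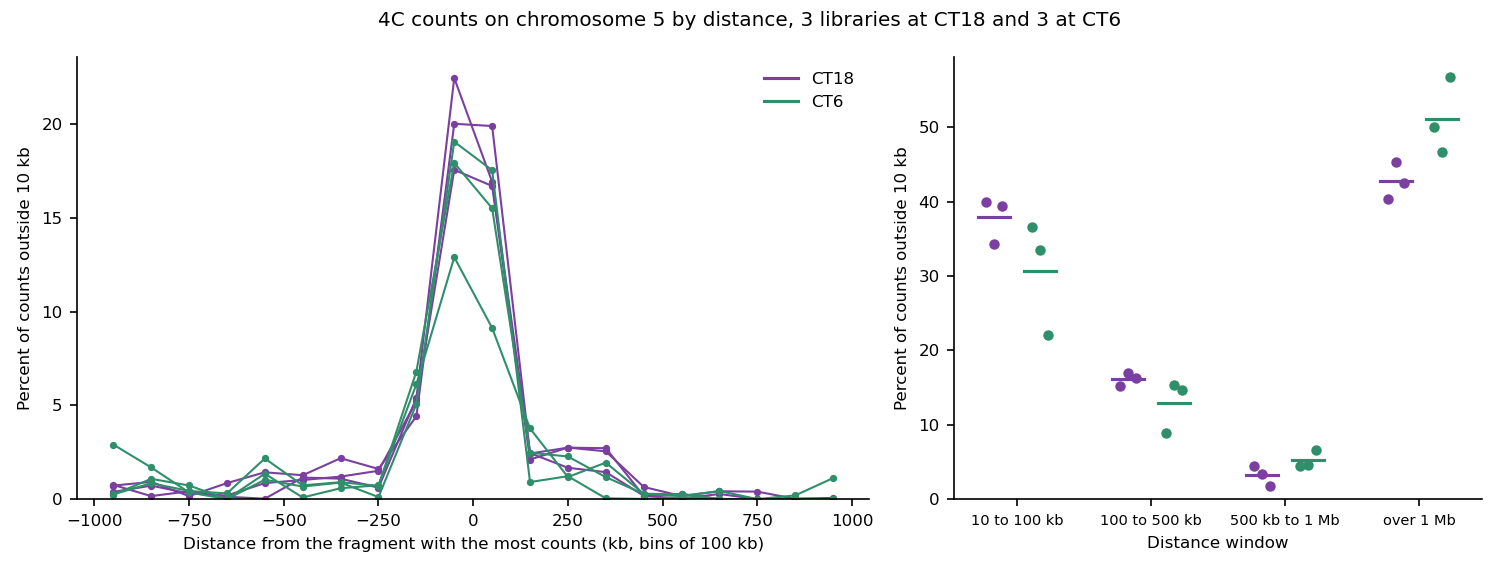
Left, percent of 4C counts outside 10 kb in bins of 100 kb (vertical axis) against distance from the fragment with the most counts (horizontal axis, kb), 1 line per library at CT18 (purple) and CT6 (green). Right, the same percent in 4 distance windows, with points for libraries and bars for means; beyond 1 Mb the 3 CT18 libraries (40.38% to 45.27%) lie below the 3 CT6 libraries (46.61% to 56.68%).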

How the data were processed

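Liver RNA libraries (12 in the Bmal1 and 8 in the Nr1d1 experiment) and 6 4C libraries were used, with groups taken from the sample titles. The authors deposited RPKM per Ensembl transcript and, for 4C, a raw read count per restriction fragment of chromosome 5. TopHat2, Bowtie and bedtools 2.19.1 with build mm9 are named in the submitters' processing notes; their roles, annotation, filters and strand setting were not given in the sources used here. RNA libraries were made with a TruSeq v2 kit, per the labels' protocols.

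Genes, gene lists and the naming rule were chosen with earlier results of these data known. All 10 genes are named in every contrast, with the 5 genes most like Crot, the 1 most like each other gene, and up to 6 genes per list called between knockout and control, by smallest adjusted p, except 1 gene that is not reported here. Each symbol was represented by its transcript of highest mean log2(RPKM + 0.5). Genes with a mean of at least 0.5 RPKM were tested with limma 3.58.1 (mean trend, 4 group means per experiment, two-sided), and called where the p adjusted by Benjamini-Hochberg over all genes of a contrast was under 0.05. The method was checked on simulated data. Whether replicate numbers pair livers was checked by correlating deviations from group means. Same-numbered libraries of the Nr1d1 experiment had r of 0.817 to 0.878, and it was fitted with replicate number as a block, and the Bmal1 experiment without one. Labels speak of pairs of knockout and wild-type mice without tying numbers to them, and p-values measure the spread between these livers.

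Whole reads were recovered from RPKM steps (tolerance 0.05) for 99.5% of 16629 Bmal1 and 92.5% of 18950 Nr1d1 transcripts and tested with edgeR 4.0.16 (quasi-likelihood) as an alternative, for 11358 and 11325 genes. In replicate 1 of the Nr1d1 experiment nearly all recovered values were even and were halved. 4C shares were compared by exact permutation over libraries, and counting error alone does not cover amplification. Each choice was varied in turn, and each library was left out in turn. Promoter windows come from RefSeq GRCm38.p6 and were searched for exact motifs.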

Additional observations from a re-analysis of the deposited data

Results flagged for a closer look

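The effect of the Bmal1 knockout on Crot differed between CT12 and CT0 by the interaction test, by 2.20 on the log2 scale, with all 3 knockout livers above all 3 control livers at CT12 and all 3 below them at CT0. The effect on Abcb1a differed as well, by -1.20, with all 3 knockout livers below all 3 control livers at CT12 and overlapping groups at CT0. At CT0 neither knockout difference was called (adjusted p by limma 0.24 for Crot and 0.587 for Abcb1a). The closest knockout and control livers for Crot there were at 258 and 260 RPKM. Under other settings the Crot interaction was called in 12 of 20 fits, 5 of them among the 12 without 1 library, and the Abcb1a interaction in 5 of 20, 1 of them among those 12. No other of the 7 genes tested had a called interaction in the Bmal1 experiment, and none of 8 had one in the Nr1d1 experiment.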

How the results depend on the processing

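Of 1390 refitted differences of single genes, 49 lost a call, 4 gained one and none turned a called direction round. Counts of neighbours called that moved by more than 1.5 times were those of the Bmal1 interaction (2 called), with 1 under a pseudocount of 0.1, 0 with no filter on RPKM, 1 with transcripts summed and 1 with replicate number as a block, and those over time when the compared groups were fitted alone (0 in Bmal1 knockout livers in place of 1, and 1 each in Nr1d1 control and knockout livers in place of 0). Leaving out 1 library gave 0 at CT0, 1 to 3 at CT12, 1 to 3 over time in control livers, 0 to 1 over time in knockout livers and 0 to 1 in the interaction of the Bmal1 experiment, and 0 in every contrast of the Nr1d1 experiment. In the Bmal1 experiment libraries shared only a number: deviations from group means had r of -0.06 to 0.12 between same-numbered libraries and -0.152 to 0.097 between others. A block on replicate number there gave adjusted p by limma of 0.0405 for Abcb4 at CT12, 0.0646 for Dmtf1 over time in control livers and 0.0711 for the Abcb1a interaction, and changed no other call. Without the block the Nr1d1 experiment had 0 neighbours called as before. Another scaling changed the share of higher genes among all those called in Bmal1 knockout livers at CT12 (66.8%; 48.3% with TMM) and over time in control livers (31.4%; 49.9% with TMM), and the median of all genes by less than 0.1 there. The 4C differences without 1 library ranged from 2.83 to 10.12 points at 10 kb to 100 kb, 1.16 to 4.38 at 100 kb to 500 kb, -2.62 to -1.27 at 500 kb to 1 Mb and -10.6 to -5.56 beyond 1 Mb. As a share of all chromosome 5 counts that beyond 1 Mb was -5.29. Pairing 4C libraries by number gave p = 0.25 in every window (exact sign-flip permutation, its smallest value), and exact permutation p lay between 0.1 and 0.9 over all settings. Low read numbers limit Rundc3b, Adam22 and Abcb1b, and 2 livers a group limit the Nr1d1 experiment.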
